A study of Homo sapiens with 3 samples.

Results

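The genes of chromosome 1 between 45.4 and 145.6 Mb (GRCh37) were followed in the cholangiocarcinoma cell line KKU-213 at high and normal glucose and in its subline KKU-213L5. The members were all genes lying wholly inside these limits whose expression was at least 3 FPKM (fragments per kilobase of transcript, scaled to the size of the library) with status OK in all 3 libraries. They numbered 266, of 9645 genes that passed the same filter on all chromosomes. The region was divided at 94.3 Mb into a lower stretch of 149 members and an upper stretch of 116 members, and BCAR3, an adaptor of integrin signalling, lies across the divide. The limits, the divide and the filter were chosen on the values of these same libraries, so the levels and ratios given here describe the members and test nothing.

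The series holds 3 libraries, 1 of each culture. L5 was KKU-213L5 grown in DMEM with 25 mM glucose. HG was KKU-213 grown in DMEM with 25 mM glucose. NG was KKU-213 grown in DMEM with 5.6 mM glucose. All cultures received fetal bovine serum and had passed more than 5 passages, and the labels describe the cells as intrahepatic cholangiocarcinoma, which arises from bile duct epithelium within the liver. From outside the labels, KKU-213L5 is known to have been selected from KKU-213 for its metastatic ability. HG against NG sets 2 glucose concentrations side by side, and L5 against HG sets the subline beside its parent at equal glucose. L5 against NG differs in both, and line and glucose cannot be told apart in it. With 1 library per group no difference has a replicate check, and no p-value was computed. In every comparison, an effect of glucose or line also cannot be told apart from a difference between single cultures. The 3 comparisons share libraries, so their values for a gene are not separate evidence.

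Chromosome 1 carries its centromere inside this region, with the short arm below it and the long arm beyond it. The genes of the region are not one pathway. They encode a small GTPase of the RAS family (NRAS), the tissue factor that starts blood clotting (F3), a lactate and pyruvate transporter (SLC16A1), the transcription factor JUN, ribosomal proteins and subunits of general transcription factors. Neighbouring genes usually have promoters of their own and answer to different signals. In cancer cell lines chromosome segments are commonly present in uneven copy number, and RNA of the genes on a segment usually follows its copy number. DNA was not measured in these libraries.

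3 promoters are printed for members with a known response element, because such an element lets a gene answer to a signal of its own, apart from its neighbours. They are RefSeq promoters of the build GRCh38.p14, from 250 bases before to 50 bases after a listed start of the gene, and capitals mark the match. For TXNIP and IFI44 2 promoters each were listed, and for JUN 1. Only 1 per gene is printed, and whether the others hold the element is not reported here. TXNIP, an inhibitor of glucose uptake, has a carbohydrate response element, searched as CACGNGNNNNNCACGNG on both strands and found in 20 of 35116 promoters (0.057%). IFI44, an interferon-induced gene, was searched for the interferon-stimulated element GAAANNGAAA on both strands, which 1255 promoters held (3.57%). JUN was searched for the AP-1-like element TGACATCA on both strands, which 918 promoters held (2.61%). The matches begin 88, 18 and 67 bases before the start of TXNIP, IFI44 and JUN. The genes were picked for elements already known, so a match was anticipated, and the share of promoters with each pattern is background only. A match describes letters in this window and is not evidence that a factor was bound.
TXNIP promoter (chr1:145996530-145996829, minus strand): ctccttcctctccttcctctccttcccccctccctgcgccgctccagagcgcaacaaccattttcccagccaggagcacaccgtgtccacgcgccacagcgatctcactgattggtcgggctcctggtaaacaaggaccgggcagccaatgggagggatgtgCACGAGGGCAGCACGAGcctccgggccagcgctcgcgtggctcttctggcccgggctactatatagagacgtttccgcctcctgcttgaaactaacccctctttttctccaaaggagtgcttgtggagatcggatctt
IFI44 promoter (chr1:78649539-78649838, plus strand): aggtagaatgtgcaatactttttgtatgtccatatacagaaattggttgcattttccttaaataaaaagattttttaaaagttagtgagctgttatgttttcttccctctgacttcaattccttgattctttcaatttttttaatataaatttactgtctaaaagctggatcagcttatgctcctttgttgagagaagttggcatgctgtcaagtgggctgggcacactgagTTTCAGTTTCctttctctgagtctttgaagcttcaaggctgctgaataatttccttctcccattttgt
JUN promoter (chr1:58783998-58784297, minus strand): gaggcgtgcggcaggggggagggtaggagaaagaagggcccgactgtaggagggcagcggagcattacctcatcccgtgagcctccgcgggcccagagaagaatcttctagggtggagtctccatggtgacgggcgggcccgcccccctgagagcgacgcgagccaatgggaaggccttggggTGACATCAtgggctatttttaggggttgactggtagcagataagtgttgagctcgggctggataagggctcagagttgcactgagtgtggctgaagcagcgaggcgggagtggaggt

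The libraries held an estimated 68.7 M fragments in L5, 76 M in HG and 47.1 M in NG (in units of 1e6). 6 of 7 cholangiocyte markers reached 1 FPKM in each library, with a summed level of 2468 FPKM in L5, 2186 FPKM in HG and 2398 FPKM in NG. Of 5 hepatocyte markers 1 reached 1 FPKM (SERPINA1), with albumin at 0 in L5 and HG and 0.0729 FPKM in NG. Of 4 fibroblast markers 1 did (ACTA2), and of 4 leukocyte and endothelial markers 1 did (CD68). Of 1419 table rows between the limits, 10 had a status other than OK, 1110 were under 3 FPKM in all 3 libraries, among them rows listed at 0 throughout, and 33 reached 3 FPKM in 1 or 2 libraries. CDC14A, with a lowest value of 3.004 FPKM, was just inside the minimum, and CYB5RL, with a lowest value of 2.99 FPKM, was just outside.

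For each pair of libraries a gene's ratio is log2 of (FPKM + 1) in one over (FPKM + 1) in the other, minus the median of all 9645 genes. That median was -0.07 for HG against NG, -0.01 for L5 against HG and -0.09 for L5 against NG. The error after a gene's ratio is a standard error within the libraries, taken from the intervals deposited with each FPKM. It holds no spread between cultures. A gene is called higher or lower where its ratio passes 1.5-fold, or 0.585 on the log2 scale. Higher and lower are thus relative to the all-gene median throughout. Scaled to 49 spike-ins and not centred, that median was -0.49 in HG against NG, -0.43 in L5 against HG and -0.95 in L5 against NG. The labels do not give whether equal spike-in amounts were added to each library per RNA or per cell. Values under spike-in scaling are therefore no measure of absolute level.

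Relative to the all-gene median, most members of the lower stretch were higher in HG than in NG, whereas the median of the stretch was -0.037 under spike-in scaling. The median ratio of the 149 members was 0.45, which is 1.37-fold, with quartiles of 0.09 and 0.66. 126 of them lay above the all-gene median, as 50% of all genes do by construction. 51 of 149 (34.2%) were higher by 1.5-fold, where 4.83% of all genes were, and 2 were lower, where 4.88% of all genes were. These counts follow from a region that was chosen on this contrast, and nothing is read from them. In these bulk cultures, fewer cells carrying an RNA and less of it per cell cannot be told apart.

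RNF11, a RING-domain protein of ubiquitin ligase complexes (chr1:51701943-51739127), had 42.4 FPKM in L5, 43.4 FPKM in HG and 20.7 FPKM in NG. L5 and HG were almost level and NG was low, with a ratio of 1.11 ± 0.05 for HG against NG.
USP1, the deubiquitinase of FANCD2 and PCNA, had 75.8 FPKM in L5, 67.8 FPKM in HG and 39.7 FPKM in NG, with a ratio of 0.83 ± 0.03. NG was again the low library. The highest ratio of the lower stretch belonged to CLCA2, a chloride channel accessory protein of epithelia (chr1:86889769-86922241). CLCA2 had 11.2 FPKM in L5, 19.9 FPKM in HG and 3.37 FPKM in NG, and its ratio of HG against NG was 2.33 ± 0.06. Its NG level lay close to the 3 FPKM minimum, and its ratio was 2.61 with a pseudocount of 0.1 and 1.63 with a pseudocount of 5.
NFIA, a transcription factor of the nuclear factor I family, had 9.42 FPKM in L5, 13.9 FPKM in HG and 5.45 FPKM in NG. FAM69A, a transmembrane protein of the endoplasmic reticulum, had 17.3 FPKM in L5, 20.9 FPKM in HG and 9.36 FPKM in NG. For both genes HG was highest and NG lowest. RPL5, a protein of the large ribosomal subunit that binds 5S RNA, was the most abundant member, with 2207 FPKM in L5, 2433 FPKM in HG and 1709 FPKM in NG and a ratio of 0.58 ± 0.01.

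Of the 149 members of the lower stretch, 105 had their lowest FPKM in NG, whereas NG was lowest for 2465 of all 9645 genes. Their summed level was 8659 FPKM in L5, 8580 FPKM in HG and 6955 FPKM in NG, or 1.53%, 1.48% and 1.12% of the summed FPKM of all genes that passed. RPL5 alone held 2207 FPKM in L5, 2433 FPKM in HG and 1709 FPKM in NG of these sums, so they lean on 1 gene.

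**Figure D1:**
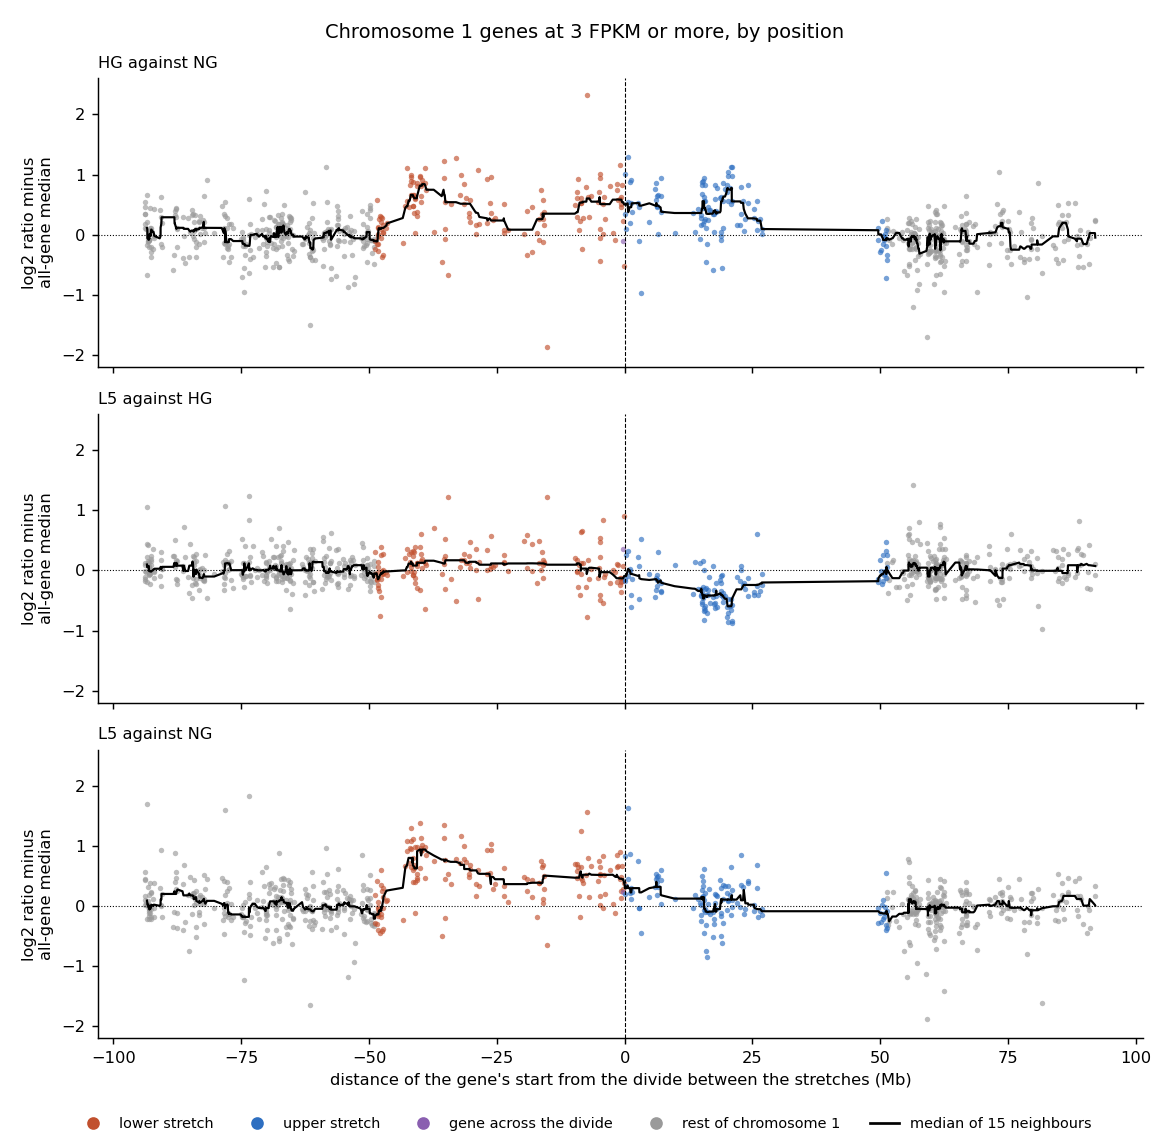
Log2 ratio of each chromosome 1 gene at 3 FPKM or more in all 3 libraries (y axis, minus the all-gene median) against the distance of its start from the divide between the stretches in Mb (x axis), for the 3 comparisons; points are genes and the line is the median of 15 neighbouring genes. The line lies above 0 across most of the lower stretch in HG against NG and L5 against NG and below 0 in the upper stretch in L5 against HG; 2 values of genes outside the region fall beyond the axis and are not drawn.

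Relative to the all-gene median, the upper stretch was also higher in HG than in NG (median -0.11 under spike-in scaling), up to the widest gap between neighbouring members. The median of its 116 members was 0.38, and 34 were higher by 1.5-fold and 3 lower, beside 4.83% and 4.88% of all genes. Members are missing for 22.8 Mb around the centromere, between RP11-343N15.5 at 121.1 Mb and FAM72D at 143.9 Mb. Before this gap, a split made after the values were seen, 101 members had a median of 0.45, with quartiles of 0.20 and 0.70, and 92 of the 101 lay above the all-gene median. All 34 members called higher lay before the gap. HG held the highest FPKM of 78 of the 101 members, whereas it did so for 2553 of all 9645 genes.

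F3, tissue factor (chr1:94994781-95007356), had 482 FPKM in L5, 386 FPKM in HG and 165 FPKM in NG. It had the highest ratio of the upper stretch for HG against NG, 1.30 ± 0.02, and its order of libraries was that of the lower stretch, with NG low.
NRAS (chr1:115247090-115259515) had 51.1 FPKM in L5, 95.5 FPKM in HG and 50.7 FPKM in NG. L5 and NG were level and HG stood above both, and the ratio of HG against NG was 0.98 ± 0.02. DENND2C, an exchange factor for RAB GTPases, had 6.04 FPKM in L5, 8.82 FPKM in HG and 3.76 FPKM in NG. DCLRE1B, a nuclease that protects telomeres, had 8.35 FPKM in L5, 14.4 FPKM in HG and 6.86 FPKM in NG. Both were highest in HG.
SLC16A1, the monocarboxylate transporter MCT1 (chr1:113454469-113499635), had 121 FPKM in L5, 175 FPKM in HG and 101 FPKM in NG, with a ratio of 0.86 ± 0.02. ATP5F1, a subunit of mitochondrial ATP synthase, was the most abundant of the upper stretch by its mean over the libraries, with 445 FPKM in L5, 653 FPKM in HG and 455 FPKM in NG. Its ratio was 0.59 ± 0.02, and L5 and NG were level.

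The stretches parted in L5 against HG. The lower stretch stayed near the all-gene median, at 0.06, with quartiles of -0.11 and 0.22. The upper stretch had a median of -0.29, and -0.33 over the 101 members before the gap, which is 0.80-fold. The difference of the medians, lower minus upper stretch, was 0.35. In the lower stretch 9 members were higher by 1.5-fold and 3 lower, and in the upper stretch 1 was higher and 17 lower. Of all genes, 3.69% were higher and 2.01% lower by 1.5-fold. The divide was set on this difference, so the counts are a description.

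NRAS had the lowest ratio of L5 against HG among all members, -0.88 ± 0.02. HIPK1, a homeodomain-interacting protein kinase, had 13.6 FPKM in L5, 25.8 FPKM in HG and 13.4 FPKM in NG and a ratio of -0.86 ± 0.03. CELSR2, a cadherin of planar cell polarity, had 3.26 FPKM in L5, 6.61 FPKM in HG and 3.20 FPKM in NG and a ratio of -0.83 ± 0.05. In each of these 3 genes the HG library was high and L5 and NG were near each other.
PSMA5, a subunit of the proteasome core, had 205 FPKM in L5, 325 FPKM in HG and 233 FPKM in NG, with a ratio of -0.65 ± 0.02. GPSM2, which orients the mitotic spindle, had 44.9 FPKM in L5, 67.3 FPKM in HG and 39.6 FPKM in NG, with a ratio of -0.56 ± 0.04. The L5 level of PSMA5 was under that of NG, and that of GPSM2 was above it.
The 4 highest ratios of L5 against HG among named members of the upper stretch belonged to PHGDH, DPYD, TXNIP and F3. PHGDH, the first enzyme of serine synthesis (chr1:120202421-120286838), had 52.2 FPKM in L5, 34.2 FPKM in HG and 34.3 FPKM in NG, and a ratio of 0.61 ± 0.04. HG and NG were level. DPYD, which degrades pyrimidines, had 8.42 FPKM in L5, 5.60 FPKM in HG and 12.7 FPKM in NG, with NG highest. TXNIP lay past the gap, and F3 had a ratio of 0.33 ± 0.01.

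In the lower stretch the extremes of L5 against HG lay on both sides. IFI44 (chr1:79115481-79129763) had 35.5 FPKM in L5, 14.8 FPKM in HG and 59.7 FPKM in NG, and a ratio of 1.22 ± 0.07. FGGY, a carbohydrate kinase, had 8.66 FPKM in L5, 3.19 FPKM in HG and 6.05 FPKM in NG, with a ratio of 1.22 ± 0.14. LRRC8C, a subunit of volume-regulated anion channels, had 11.0 FPKM in L5, 5.75 FPKM in HG and 6.09 FPKM in NG, and was higher in L5 at 0.84 ± 0.03; its locus overlaps that of LRRC8D. LRRC8B, another subunit of these channels and its close neighbour, had 5.55 FPKM in L5, 8.56 FPKM in HG and 6.09 FPKM in NG, with a ratio of -0.53 ± 0.04. The neighbours thus had opposite signs.
CLCA2 was lower in L5 than in HG at -0.77 ± 0.04, and so was PIK3R3, a regulatory subunit of PI3 kinase, at -0.76 ± 0.08 with 4.86 FPKM in L5, 9.01 FPKM in HG and 7.49 FPKM in NG.

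Set against NG, L5 was higher relative to the all-gene median across most of the lower stretch (median -0.46 under spike-in scaling) and near the all-gene median across most of the upper stretch. The lower median was 0.49, with quartiles of 0.18 and 0.74, and the upper median was 0.10. 63 members of the lower stretch were higher by 1.5-fold and 1 lower, and 9 of the upper stretch were higher and 3 lower. Of all genes, 5.57% were higher and 3.99% lower. The difference of the medians, lower minus upper stretch, was 0.39 in L5 against NG and 0.08 in HG against NG.
YIPF1, a Golgi membrane protein, had 30.8 FPKM in L5, 23.3 FPKM in HG and 11.9 FPKM in NG and a ratio of 1.39 ± 0.07 for L5 against NG. ZFYVE9, the SMAD anchor SARA, had 10.7 FPKM in L5, 8.58 FPKM in HG and 4.07 FPKM in NG and a ratio of 1.30 ± 0.06. Their libraries ran in the same order, with L5 highest. F3 had the highest ratio of all members, 1.63 ± 0.02. CSF1, the macrophage growth factor, had 4.70 FPKM in L5, 8.34 FPKM in HG and 9.94 FPKM in NG and the lowest ratio, -0.85 ± 0.09. GSTM3, a glutathione transferase whose family members are related in sequence, had 14.7 FPKM in L5, 18.5 FPKM in HG and 27.1 FPKM in NG, and its ratio of L5 against NG was -0.75 ± 0.08.

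**Figure D2:**
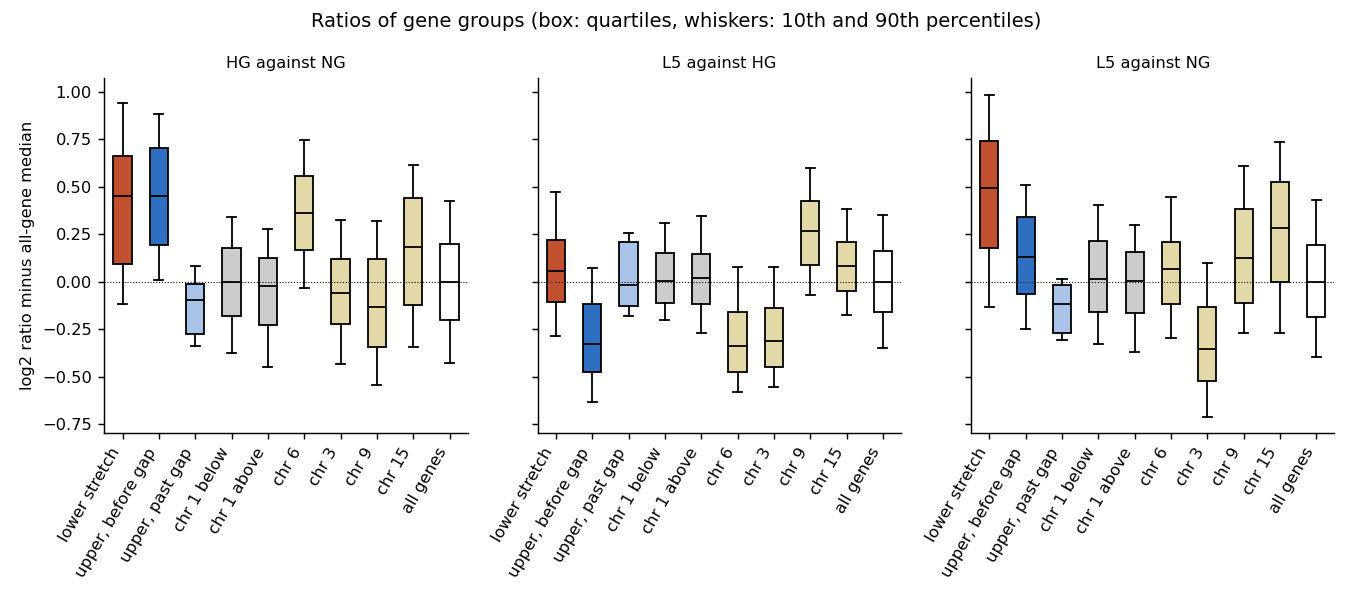
Log2 ratios minus the all-gene median (y axis) of the lower stretch, the upper stretch before and past its gap, the rest of chromosome 1 below and above the region, 4 other chromosomes and all genes; the box gives the quartiles with the median, and the whiskers the 10th and 90th percentiles. The lower stretch and the upper stretch before the gap have the same median in HG against NG (0.45) and different ones in L5 against HG (0.06 and -0.33).

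The shift in the lower stretch did not begin at the lower limit. The 25 members from HECTD3 to FAF1, 45.5 to 51.4 Mb, had a median of 0.04 for HG against NG and -0.04 for L5 against NG, and none was called in HG against NG. The 124 members from CDKN2C on had medians of 0.52 and 0.59, and they held all 51 members called higher in HG against NG. FAF1, a FAS-associated factor, had 31.0 FPKM in L5, 33.4 FPKM in HG and 38.8 FPKM in NG, and a ratio of -0.14 ± 0.06. CDKN2C, an inhibitor of CDK4 and CDK6 that is the next member, had 10.5 FPKM in L5, 9.08 FPKM in HG and 6.65 FPKM in NG, with a ratio of 0.47 ± 0.08. The order of libraries reversed between these neighbours, with NG highest in FAF1 and lowest in CDKN2C. This position was chosen after the values were seen.
Among the members before it, PRDX1, a peroxide-reducing enzyme, had 525 FPKM in L5, 575 FPKM in HG and 731 FPKM in NG. UQCRH, a subunit of respiratory complex III, had 258 FPKM in L5, 270.1 FPKM in HG and 367 FPKM in NG. Both were highest in NG. NASP, a histone chaperone, had 173 FPKM in L5, 168 FPKM in HG and 176 FPKM in NG and a ratio of 0.01 ± 0.03 for HG against NG.

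Within the shifted part of the lower stretch the height varied. The 30 members from TXNDC12 to OMA1, 52.5 to 59 Mb, had medians of 0.71 for HG against NG and 0.83 for L5 against NG. Against NG, 21 of the 30 were higher by 1.5-fold in HG and 22 in L5, beside 4.83% and 5.57% of all genes. These members were picked after the values were seen, and nothing is read from the counts. Among them, TXNDC12, a thioredoxin-like protein of the endoplasmic reticulum, had 42.9 FPKM in L5, 39.8 FPKM in HG and 21.0 FPKM in NG. SCP2, a carrier of sterols and fatty acids in peroxisomes, had 100.4 FPKM in L5, 76.8 FPKM in HG and 53.6 FPKM in NG. TMEM59, which regulates Golgi glycosylation, had 161 FPKM in L5, 134 FPKM in HG and 90.2 FPKM in NG. NG was the low library in all of these.
In blocks of 15 successive members the median of HG against NG was 0.82 from MAGOH to OMA1, 0.27 from PGM1 to ANKRD13C, 0.26 from ZRANB2 to DNAJB4 and 0.55 from CLCA2 to ZNF326. The median of L5 against NG over the same blocks was 0.92, 0.54, 0.39 and 0.53. The lowest blocks of the middle lie between 64.1 and 78.5 Mb.

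The parting of L5 from HG did not begin sharply at the divide. The last blocks before it, from CLCA2 to ZNF326 and from ZNF644 to RP11-488P3.1, had medians of -0.066 and -0.13 in L5 against HG, and the first 15 members past it, from DNTTIP2 to SNX7, had -0.058. The 27 members from DNTTIP2 to RNPC3, 94.3 to 104.1 Mb, had a median of -0.14 in L5 against HG and 0.32 in L5 against NG. The 57 members from PRMT6 to SIKE1, 107.6 to 115.3 Mb, had medians of -0.42 and 0.06, and 16 of the 17 upper members called lower in L5 lie among them. The 17 members from VANGL1 to RP11-343N15.5, 116.2 to 121.1 Mb, had -0.24 and 0.03. In HG against NG these 3 groups of members had medians of 0.52, 0.45 and 0.27. Their ends, too, were chosen after the values were seen.
DNTTIP2, a nucleolar protein and the first member past the divide (chr1:94333373-94345474), had 111 FPKM in L5, 128 FPKM in HG and 66.1 FPKM in NG. Its L5 and HG levels were both far above NG, with a ratio of 0.84 ± 0.03 for L5 against NG. GCLM, the modifier subunit of glutathione synthesis and its neighbour, had 24.5 FPKM in L5, 27.2 FPKM in HG and 22.5 FPKM in NG. ARHGAP29, a GTPase-activating protein, had 78.5 FPKM in L5, 66.4 FPKM in HG and 65.6 FPKM in NG. The order of libraries was not shared: HG was highest for DNTTIP2 and GCLM, and L5 for ARHGAP29. On the other side BCAR3 had 42.4 FPKM in L5, 33.2 FPKM in HG and 38.0 FPKM in NG. FNBP1L, which links CDC42 to actin, had 8.42 FPKM in L5, 8.05 FPKM in HG and 7.18 FPKM in NG. RP11-488P3.1, whose locus lies inside that of BCAR3, had 42.2 FPKM in L5, 22.3 FPKM in HG and 34.3 FPKM in NG, and reads of the pair may have been divided between them.

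The 15 members past the gap stood near the all-gene median, at -0.09 in HG against NG, -0.01 in L5 against HG and -0.12 in L5 against NG. 1 of them, POLR3GL, a subunit of RNA polymerase III, was called, with 6.35 FPKM in L5, 4.93 FPKM in HG and 9.29 FPKM in NG and a ratio of -0.72 ± 0.10 for HG against NG. RBM8A, a core protein of the exon junction complex, had 90.4 FPKM in L5, 99.3 FPKM in HG and 119 FPKM in NG. SEC22B, a vesicle fusion protein, had 68.7 FPKM in L5, 73.3 FPKM in HG and 82.5 FPKM in NG. NG was highest in both. TXNIP (chr1:145438469-145442635), whose carbohydrate response element is printed above, had 16.0 FPKM in L5, 11.3 FPKM in HG and 11.3 FPKM in NG. HG and NG were level, with a ratio of 0.08 ± 0.06, and L5 against HG gave 0.47 ± 0.05. 6 of the 15 belong to families with near-identical copies elsewhere on the chromosome (FAM72D, SRGAP2B, NBPF8P, NBPF9, NBPF10, NOTCH2NL), and their levels are uncertain where reads were divided among copies. The same limit holds for FAM72B, SRGAP2C and NOTCH2, members of these families that lie before the gap. PIAS3, an inhibitor of STAT3 and the last member, had 5.00 FPKM in L5, 4.80 FPKM in HG and 7.15 FPKM in NG.

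Outside the limits the genes of chromosome 1 lay near the all-gene median. The 303 genes below had medians of 0.00 in HG against NG and 0.01 in L5 against HG, and the 429 above had -0.02 and 0.02. Next to the lower limit, PLK3, a stress-response kinase, had a ratio of -0.49 for HG against NG. EIF2B3 and POLR3C cross a limit and are no members, with ratios of -0.12 and 0.26. Chromosome 6 as a whole had medians of 0.36 in HG against NG and -0.34 in L5 against HG over 411 genes, beside 0.45 and -0.33 for the upper stretch before the gap. Chromosome 3 had -0.06 and -0.31, chromosome 9 had -0.13 and 0.27, and chromosome 15 had 0.18 and 0.08.

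**Figure D3:**
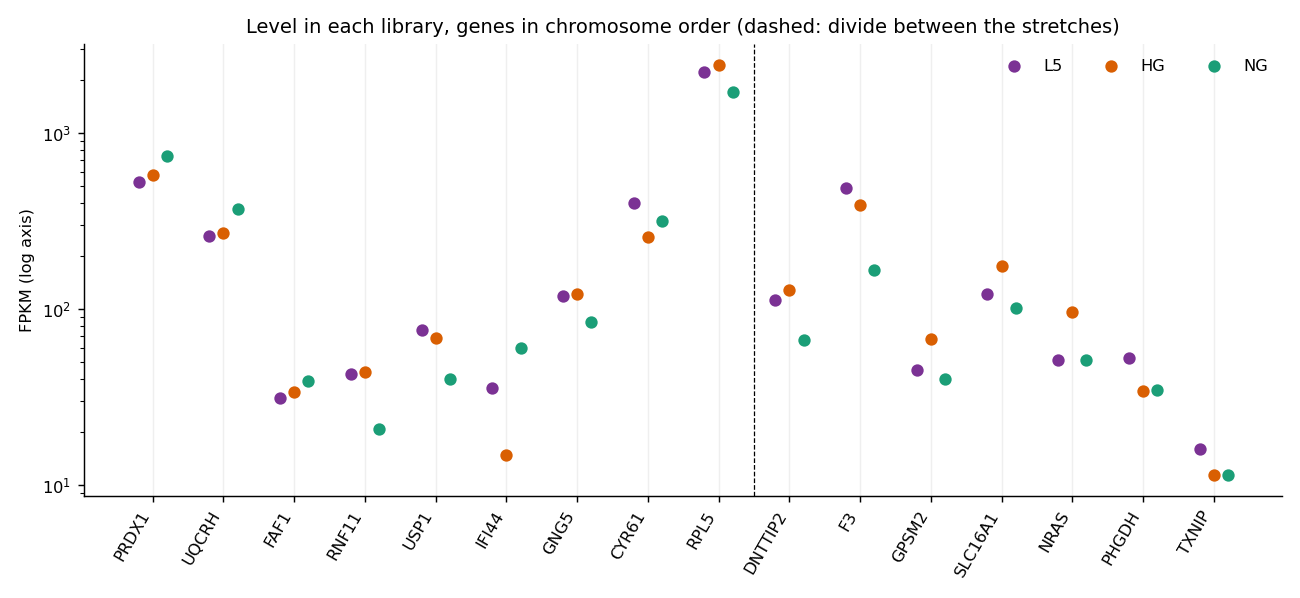
FPKM of 16 named members in the L5, HG and NG libraries (y axis, log scale), in chromosome order from left to right; each point is 1 library and the dashed line is the divide between the stretches. PRDX1, UQCRH and FAF1 are highest in NG, RNF11 and USP1 have L5 near HG and above NG, and NRAS has HG above L5 and NG.

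The members were also grouped into 17 lists by function, most of them with members in both stretches. The lists were drawn up with results of these data known and describe the members only. Of all 266 members, 32.0% were called higher and 1.88% lower in HG against NG, 3.76% and 7.52% in L5 against HG, and 27.1% higher and 4 members lower in L5 against NG. The lists are short, and their counts are set beside these shares and those of all genes (4.83% and 4.88%, 3.69% and 2.01%, 5.57% and 3.99%) as a description, with nothing read from them. Of 14 general transcription and chromatin members, 9 were higher by 1.5-fold in HG against NG and 1 lower, with a median of 0.68, beside 0.39 over all 266 members. TAF13, a subunit of TFIID, had 81.2 FPKM in L5, 114 FPKM in HG and 64.3 FPKM in NG. DR1, a repressor of TBP, had 68.6 FPKM in L5, 77.9 FPKM in HG and 45.7 FPKM in NG. BTF3L4, a relative of a nascent-chain binding factor, had 64.4 FPKM in L5, 65.4 FPKM in HG and 43.2 FPKM in NG. All 3 had NG lowest. The 6 ubiquitin and proteasome members had a median of 0.65 in HG against NG, with 3 called higher, and 0.77 in L5 against NG, with 5 called higher.
The mitochondrial list had 8 members, among them TMEM59, which is described above as a regulator of Golgi glycosylation. In HG against NG 4 of the 8 were higher, TMEM59 among them at 0.64, and 0 were lower. UQCRH and ATPAF1, an assembly factor of ATP synthase, had ratios of -0.37 and -0.35. Both of these lie before CDKN2C. The 17 splicing and RNA-binding members had medians of 0.46 in HG against NG and -0.12 in L5 against HG, with 5 called higher in the first and 4 lower in the second. SERBP1, which binds ribosomes and mRNA, had 301 FPKM in L5, 298 FPKM in HG and 219 FPKM in NG. MAGOH, a core exon junction protein, had 238 FPKM in L5, 219 FPKM in HG and 186 FPKM in NG. Both lie in the lower stretch and had L5 and HG near each other.

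Of 7 members of sugar use and lactate transport, 3 were higher by 1.5-fold in HG against NG and FGGY was lower, with a median of 0.58. AK4, a mitochondrial adenylate kinase, had 35.3 FPKM in L5, 49.9 FPKM in HG and 24.5 FPKM in NG. PGM1, which joins glycogen and glucose metabolism, had 48.4 FPKM in L5, 47.4 FPKM in HG and 33.2 FPKM in NG. HG was highest for AK4 and SLC16A1, and L5 and HG were level for PGM1.
The 6 sterol and lipoprotein members all lay above the all-gene median in HG against NG, with 2 called higher, among them LRP8, an apolipoprotein E receptor. In L5 against HG, 2 were called lower, among them SORT1, a sorting receptor, at -0.62 ± 0.03. OSBPL9, a lipid transfer protein, had 46.9 FPKM in L5, 39.0 FPKM in HG and 29.9 FPKM in NG. CEPT1, an enzyme of the final step of phospholipid synthesis, had 25.7 FPKM in L5, 38.4 FPKM in HG and 31.7 FPKM in NG. Of 6 fatty acid oxidation and peroxisome members, CPT2, which moves fatty acids into mitochondria, had 9.70 FPKM in L5, 8.91 FPKM in HG and 4.74 FPKM in NG. ABCD3, a transporter of the peroxisome membrane, had 47.0 FPKM in L5, 50.5 FPKM in HG and 36.3 FPKM in NG. CPT2 and ABCD3 were lowest in NG. ACADM, the medium-chain acyl-CoA dehydrogenase, had 21.6 FPKM in L5, 15.8 FPKM in HG and 20.7 FPKM in NG and was lowest in HG.
The 8 small GTPases and G protein subunits had a median of 0.53 in HG against NG, with 4 called higher. GNG5, a G protein gamma subunit, had 118 FPKM in L5, 122 FPKM in HG and 83.5 FPKM in NG, RAP1A, a small GTPase of cell adhesion, had 79.4 FPKM in L5, 107 FPKM in HG and 87.4 FPKM in NG. RHOC, which promotes cell motility, had 149.6 FPKM in L5, 160.3 FPKM in HG and 172 FPKM in NG. RHOC lay near the all-gene median in every comparison, at -0.02 in HG against NG, -0.09 in L5 against HG and -0.10 in L5 against NG.
Of 6 amino acid and tRNA members, 3 were called higher in HG against NG, among them SARS, the seryl-tRNA synthetase, with 131 FPKM in L5, 132 FPKM in HG and 89.8 FPKM in NG. SARS was level between L5 and HG. Of 10 glycosylation members, 3 were called higher in HG against NG, a share near that of all members. ALG6, an N-glycan glucosyltransferase, had 26.5 FPKM in L5, 22.5 FPKM in HG and 19.2 FPKM in NG. PIGK, of the GPI transamidase, had 26.3 FPKM in L5, 18.7 FPKM in HG and 21.1 FPKM in NG. Of 8 cell surface and cytoskeleton members 3 were called higher, among them CAPZA1, which caps actin filaments, with 185 FPKM in L5, 236 FPKM in HG and 159.9 FPKM in NG.

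**Figure D4:**
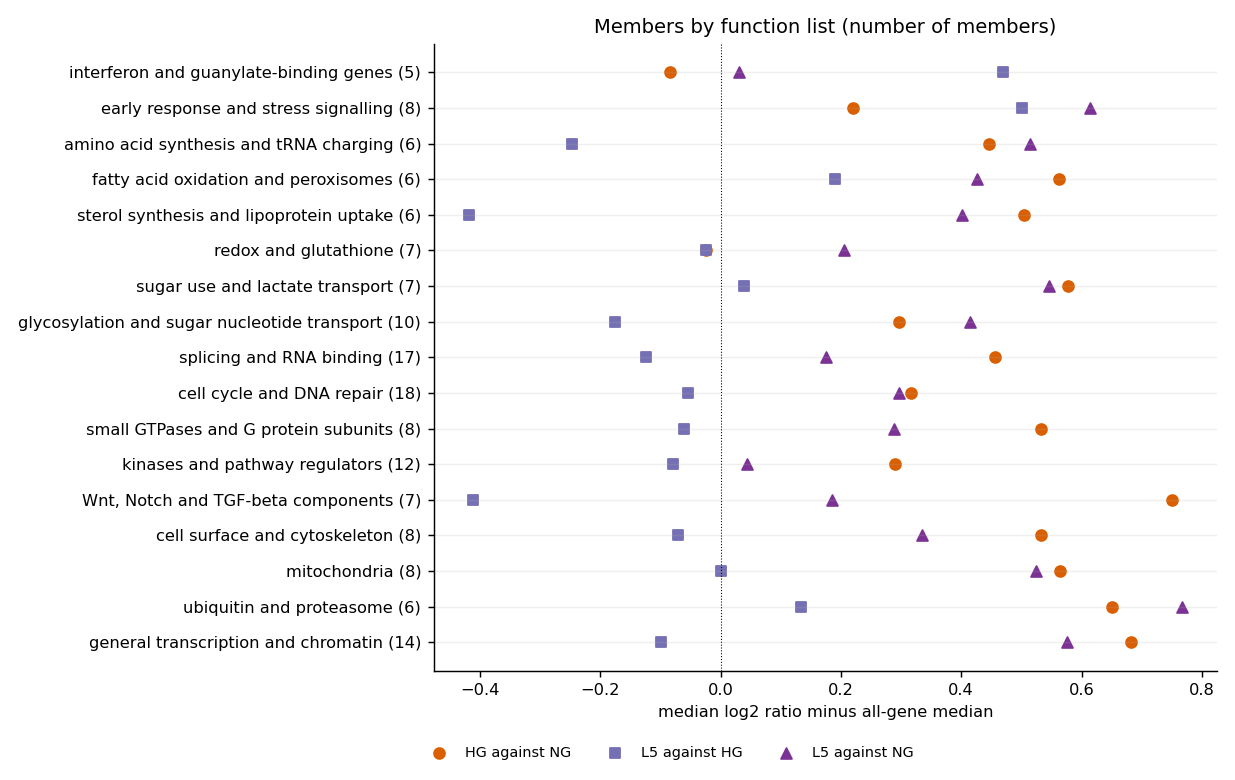
Median log2 ratio minus the all-gene median (x axis) of the members of each function list (y axis, with the number of members) in the 3 comparisons; each point is 1 median. In HG against NG the medians run from -0.08 for interferon genes to 0.75 for Wnt, Notch and TGF-beta components, and in L5 against HG from -0.42 for sterol genes to 0.50 for early response genes.

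Interferon, redox and early response genes had the lowest list medians in HG against NG. Of the 5 interferon and guanylate-binding members, 0 were called higher in HG against NG and IFI44 was lower, at -1.87 ± 0.07, the lowest ratio of all members. NG was its highest library and HG its lowest, whereas NG was the lowest library of most members of the stretch it lies in. GBP3, an interferon-induced GTPase, had 19.6 FPKM in L5, 14.0 FPKM in HG and 20.4 FPKM in NG. JAK1, the kinase of interferon receptors, had 26.2 FPKM in L5, 20.4 FPKM in HG and 21.4 FPKM in NG. In L5 against HG, 4 of the 5 lay above the all-gene median, and MOV10, an RNA helicase, did not, with 9.93 FPKM in L5, 13.6 FPKM in HG and 15.3 FPKM in NG.
The 8 early response and stress members had a median of 0.22 in HG against NG and 0.50 in L5 against HG, where 7 of 8 lay above 0. In L5 against HG 2 of them were called higher and 1 lower. CYR61, a matricellular protein induced by serum and YAP, had 400.0 FPKM in L5, 254 FPKM in HG and 315 FPKM in NG. JUN (chr1:59246465-59249785) had 22.8 FPKM in L5, 15.6 FPKM in HG and 17.4 FPKM in NG. HG was the lowest library in both. GADD45A, a stress-induced growth arrest protein, had 45.5 FPKM in L5, 30.5 FPKM in HG and 24.9 FPKM in NG. BCL10, which activates NF-kappaB, had 41.8 FPKM in L5, 26.6 FPKM in HG and 18.2 FPKM in NG. L5 was highest and NG lowest in both.
The 7 redox and glutathione members had a median of -0.02 in HG against NG, with 1 called higher, TXNDC12. PRDX1 and AKR1A1, an aldehyde reductase (27.5 FPKM in L5, 28.2 FPKM in HG and 30.3 FPKM in NG), lie before CDKN2C, and TXNIP lies past the gap. GSTM3 and CRYZ, a quinone reductase, had ratios of -0.45 and -0.34. The CDKN2C position and the split at the gap were chosen after the values were seen, and an effect of place was not tested.
Of 18 cell cycle and DNA repair members, 5 were called higher in HG against NG and 0 lower, again near the share of all members, and MUTYH, a DNA glycosylase among the first members, had 8.21 FPKM in L5, 9.28 FPKM in HG and 11.1 FPKM in NG. Of 12 kinase and pathway members, 2 were called higher in HG against NG, and 3 lower in L5 against HG. PKN2, a serine/threonine kinase, had 40.9 FPKM in L5, 45.0 FPKM in HG and 32.2 FPKM in NG. Of 7 Wnt, Notch and TGF-beta members, 4 were called higher in HG against NG. TRIM33, a regulator of SMAD4, had 22.3 FPKM in L5, 34.5 FPKM in HG and 20.8 FPKM in NG. WLS, which carries Wnt proteins to the surface, had 25.6 FPKM in L5, 24.7 FPKM in HG and 22.1 FPKM in NG.

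The members were next split by expression level, at the mean FPKM of 10.3 and 27.0 that cut all genes into 3 equal groups. In this split, the lower stretch had medians of 0.21, 0.51 and 0.52 in HG against NG from the low to the high group (42, 49 and 58 members). The upper stretch before the gap had -0.37, -0.32 and -0.33 in L5 against HG (28, 35 and 38 members). The 141 protein coding members of the lower stretch had a median of 0.47 in HG against NG. Its 8 other members, mostly processed pseudogenes whose reads can come from parent genes elsewhere, had -0.02. In the upper stretch before the gap, 93 protein coding members had -0.34 in L5 against HG and 8 others 0.00.
Among genes at 1 to 3 FPKM, which are no members, 27 in the lower stretch had a median of 0.28 in HG against NG, with 9 higher by 1.5-fold and 0 lower, beside 6.92% and 9.12% of the 2600 genes at that level. The 17 such genes of the upper stretch before the gap had -0.02 in HG against NG and 0.13 in L5 against HG, and 5 of these are protein coding.
The loci of 74 members overlap another gene that passed the filter. The libraries were prepared to keep strand, but whether the strand was used in counting is not given in the sources used here. Reads from the bases that an overlapping pair shares may therefore have been divided between its genes. Some pairs share only their ends: WDR77 ends at 111991998 and ATP5F1 starts at 111991486, and AP4B1 ends at 114447823 and DCLRE1B starts at 114447763.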

How the data were processed

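Strand-specific poly-A libraries of KKU-213L5 and of KKU-213 at 2 glucose concentrations were sequenced as paired reads of 100 bases, per the labels' protocols, with 1 library per group. The FPKM values are those the authors deposited, made with BWA, TopHat and Cufflinks on GRCh37, per the submitters' processing notes, and no versions are stated. The coverage, a signal value deposited per transcript, is the mean read depth, per the file headers. Divided by FPKM, and with 200 bases per fragment, it gave the fragments per library; this quotient was constant within 1% for 90.9%, 91.3% and 89.8% of transcripts in L5, HG and NG.

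Ratios are log2((FPKM + 1)/(FPKM + 1)) minus the median of genes with status OK and at least 3 FPKM in all 3 libraries. Spike-ins were left out. A pseudocount of 1 understates changes of low genes. The deposited 95% interval bounds on FPKM gave the standard errors, which cover error within a library only and no spread between cultures. No test was possible with 1 library per group. Steps were checked on shuffled ratios with a known shift added. Python 3.11.15, pandas 2.3.3, numpy 2.4.6 and matplotlib 3.10.9 were used.

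The members, the 17 lists, the limits and the divide were chosen with earlier results of these data known. Named genes were the 4 highest and 4 lowest members per comparison and stretch with an approved-style symbol, the 3 nearest each limit and the divide, up to 3 per list by mean FPKM, the 5 most abundant and 8 fixed genes; other genes were named after their values were seen, and a few members are left unreported here. Gene types came from GENCODE 29 by gene ID, with 10 members unmatched. Promoters came from RefSeq (GRCh38.p14) by symbol, and all 3 symbols looked up were matched; no coordinates were carried between the builds. Alternatives varied the pseudocount, the filter, the centring, the scaling and the set of genes.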

Additional observations from a re-analysis of the deposited data

How the results depend on the processing

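No paired analysis was possible because each group has 1 library. The medians, differences and counts were recomputed under 14 alternatives, 4 of them (spike-in scaling, protein coding genes alone, the upper stretch without the members past the gap, the lower stretch from CDKN2C on) chosen after seeing the data. Of 198 such values, 173 stayed within the 95% interval of the median over members or within 1.5-fold of the count. A further 21 moved beyond that, and 4 whose interval left out 0 changed sign. Some of the 173 could not change, because a scaling that moves every gene alike leaves the difference of the medians as it was. Dropping members of one stretch likewise leaves the median of the other. The interval takes member genes as its units and is no replicate check. Isoform sums gave the same values as the gene table and are no separate check. Scaled to 49 spike-ins and not centred, the median of all genes moved to -0.49 in HG against NG, -0.43 in L5 against HG and -0.95 in L5 against NG. Under that scaling the lower stretch had medians of -0.037, -0.37 and -0.46 and the upper stretch -0.11, -0.72 and -0.85 in the same 3 comparisons. The members higher by 1.5-fold were then 9, 2 and 2, and those lower 31, 102 and 146. Because equal spike-in amounts are not given in the labels, no absolute fall is read from these counts. Relative to the all-gene median the stretches kept their values, because the scaling moves every gene alike. Not centred otherwise, the lower stretch had 0.40 in L5 against NG. With a pseudocount of 5 its median there was 0.42, and members higher by 1.5-fold were 43 in L5 against NG and 4 in L5 against HG. Members lower were then 2 in HG against NG, 9 in L5 against HG and 2 in L5 against NG. At 1 FPKM or more, 9 members were lower in HG against NG and 7 in L5 against NG. At 10 FPKM or more, members lower were 2 in HG against NG, 13 in L5 against HG and 2 in L5 against NG, and 46 were higher in L5 against NG; 171 members remained under that filter, so fewer genes could be counted. Of 558 values of named genes at other pseudocounts, 72 moved beyond 1.96 standard errors of the gene's ratio and none changed its sign among those called. The FPKM tables carry no replicate, and the depth limits members near 3 FPKM most.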
